A study of Mus musculus with 18 samples.

Results

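H3K9me3 peaks at the starts of noncoding RNAs were examined in mouse embryonic stem cells (mESCs). Overlapping peaks of 6 peak lists were merged over chromosomes 1 to 19 without chromosome 2, which gave 145014 regions, and a region was kept when it was shorter than 20 kb, overlapped the stretch reaching 1 kb to each side of the start of a noncoding transcript (RefSeq prefix NR_ or XR_ in the deposited annotation) and overlapped no such stretch of a coding transcript (NM_ or XM_). This left 5334 noncoding promoter regions out of 141863 merged regions under 20 kb. They lay at 5108 noncoding genes and 8917 noncoding transcripts, of which 1171 were curated (NR_) and 7746 predicted (XR_), and 5064 of the regions belonged to 1 gene. The length limit removed 615 regions that otherwise met the rule. The longest region kept was that of Gm35341 with 19800 bp and 401 and 463 ChIP reads in the WT libraries, and the shortest left out was that of Gm31047 with 20000 bp and 595 and 602 reads.

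The cells were E14TG2a, an mESC line grown in serum with LIF, and ChIP used 1 antibody against H3K9me3. Of the 18 samples of the study, 6 had a peak list: 2 libraries of wild-type cells (WT), 2 labelled UHRF1 knockout (Uhrf1 KO) and 2 labelled DHX9KO (Dhx9 KO), and the other samples were not analysed here. The study's methods describe Uhrf1 KO as clonal CRISPR-Cas9 lines, made in mESCs that carry an inducible silencing reporter on chromosome 2 and a TetR-KRAB fusion. The sources used here give neither the clones used for ChIP-seq nor how the Dhx9 KO cells were made. The WT cells compared with Uhrf1 KO cells carried the reporter, the sources do not say so of the Dhx9 KO cells, and the methods name biological replicates without saying what separated them. Peak lists hold no RNA, so neither the loss of the targeted gene nor markers of stem cells could be checked in them.

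H3K9me3 marks silent chromatin, and in mESCs it covers repeats, zinc finger gene clusters and the silent allele of imprinted control regions, several of which contain the start of a long noncoding RNA. At imprinted regions the zinc finger protein ZFP57 binds the methylated hexamer TGCCGC and brings in the H3K9 methyltransferase SETDB1 through TRIM28. UHRF1 binds hemimethylated DNA and H3K9me3 and recruits the maintenance DNA methyltransferase DNMT1, while DHX9 is an RNA helicase that unwinds RNA and RNA-DNA hybrids.

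The sequence of the Kcnq1ot1 region is shown because it lost its peak in Uhrf1 KO cells, was among the lost regions with the highest WT enrichment, and held 5 copies of the hexamer. Kcnq1ot1 is a long noncoding RNA transcribed antisense to Kcnq1 from the unmethylated allele of an imprinted control region. The region spanned chr7:143294001-143307600 (mm10) inside the Kcnq1 gene, and 3 of the 5 hexamers lay within 300 bases of each other, at chr7:143295558-143295857. That window is given on the plus strand of GRCm38.p6, with TGCCGC or its reverse complement GCGGCA in capitals.
Kcnq1ot1 region window: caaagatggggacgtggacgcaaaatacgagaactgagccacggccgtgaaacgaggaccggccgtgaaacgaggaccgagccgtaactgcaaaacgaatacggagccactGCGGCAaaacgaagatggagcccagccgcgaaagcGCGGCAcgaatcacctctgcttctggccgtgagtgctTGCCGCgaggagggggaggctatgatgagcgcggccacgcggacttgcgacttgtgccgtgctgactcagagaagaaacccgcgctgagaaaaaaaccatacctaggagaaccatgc
The window had a GC content of 59.0% and 31 CpG dinucleotides. Of 28549 RefSeq promoters of the same 300 bases, 11.6% held the hexamer on either strand. The window was placed where the copies lie closest together, so its number of copies is not comparable with that share. The 250 bases before and 50 bases after the Kcnq1ot1 start, at chr7:143296498-143296797 on the minus strand, held 9 CpG dinucleotides and no copy.
Kcnq1ot1 promoter: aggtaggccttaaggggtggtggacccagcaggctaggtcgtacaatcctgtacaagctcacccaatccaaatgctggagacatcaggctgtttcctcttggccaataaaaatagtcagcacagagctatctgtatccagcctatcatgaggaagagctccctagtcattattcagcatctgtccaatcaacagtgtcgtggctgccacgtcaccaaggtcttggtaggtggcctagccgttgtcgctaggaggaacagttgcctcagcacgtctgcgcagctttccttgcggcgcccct
Over the noncoding promoter regions, 2909 matched RefSeq promoter entries, with 3210 promoters in all, of which 4.8% held the hexamer. Whole regions are longer, and 41.4% of the noncoding promoter regions held at least 1 copy, against 25.9% of all regions under 20 kb, with 1.05 and 0.942 copies per 10 kb. Of those that lost their peak in Uhrf1 KO cells, 39.7% held a copy, against 55.6% of those that kept it in both Uhrf1 KO libraries. The lost regions were shorter, and the copies per 10 kb were 1.15 and 1.06. Of the promoters at lost regions 4.54% held the hexamer, against 5.14% at regions with a peak in all 6 lists. The Kcnq1ot1 region thus does not stand for the lost regions in this.

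The promoters of Ipw, Lncpint and Snhg20 are shown as starts whose regions behaved differently across the 6 lists. Ipw is an imprinted RNA of the Prader-Willi locus, whose region lost its peak in Uhrf1 KO cells. Its promoter lay at chr7:59678829-59679128 on the minus strand, wholly inside the region, with 1 CpG and no hexamer.
Ipw promoter: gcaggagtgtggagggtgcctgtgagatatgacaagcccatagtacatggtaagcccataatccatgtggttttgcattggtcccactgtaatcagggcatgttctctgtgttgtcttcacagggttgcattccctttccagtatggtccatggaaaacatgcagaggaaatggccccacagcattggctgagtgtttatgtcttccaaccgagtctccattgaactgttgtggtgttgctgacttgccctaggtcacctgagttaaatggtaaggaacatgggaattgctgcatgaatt
Lncpint, a long noncoding RNA induced by p53, had a peak at its start in the Dhx9 KO libraries alone. Its promoter, at chr6:31218425-31218724 on the minus strand, overlapped the region by 176 bases and held 18 CpG dinucleotides and 1 hexamer, in capitals.
Lncpint promoter: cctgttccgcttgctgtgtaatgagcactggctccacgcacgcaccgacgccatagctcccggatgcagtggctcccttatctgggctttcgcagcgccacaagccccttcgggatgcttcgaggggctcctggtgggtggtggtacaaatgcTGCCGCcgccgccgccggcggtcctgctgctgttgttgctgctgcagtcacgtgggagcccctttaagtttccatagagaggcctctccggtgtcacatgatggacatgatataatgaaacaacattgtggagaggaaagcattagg
Snhg20, a small nucleolar RNA host gene, had a peak in all 6 lists in the region that ended upstream of its start. The promoter at chr11:117076533-117076832 on the plus strand had no base inside the region and held 25 CpG dinucleotides and 1 hexamer.
Snhg20 promoter: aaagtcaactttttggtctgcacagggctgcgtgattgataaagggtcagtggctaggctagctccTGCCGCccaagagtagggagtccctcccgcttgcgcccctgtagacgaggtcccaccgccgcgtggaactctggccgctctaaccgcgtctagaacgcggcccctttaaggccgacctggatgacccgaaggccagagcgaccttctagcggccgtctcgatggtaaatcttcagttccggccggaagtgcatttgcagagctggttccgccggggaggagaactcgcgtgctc

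The noncoding promoter regions were longer than regions in general, with a median of 5200 bp against 3000 bp over all regions under 20 kb, and their GC content was 46.8% against 45.5%. Repeats filled less of them, as 25.7% of their bases were soft-masked against 37.4% in all regions. Regions at coding starts under 20 kb, 7719 in number, had a median length of 4800 bp, a GC content of 48.5% and 22.1% of bases masked. Of the genes nearest the region centres, 4631 matched a RefSeq gene by symbol and 703 did not, and 4122 of the matched were annotated as lncRNA, 223 as miRNA and 139 as transcribed pseudogene. By name and transcript, 4958 regions belonged to other long noncoding RNAs, 224 to miRNAs, 46 to antisense or opposite-strand genes, 53 to pseudogenes, 48 to noncoding transcripts of coding genes and 5 to snoRNA, scaRNA or snRNA genes. The start itself lay inside 3963 regions and beside 1371.

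A peak was found in WT replicate 1 in 4058 of the 5334 noncoding promoter regions (76.1%) and in WT replicate 2 in 3956 (74.2%). Uhrf1 KO replicate 1 had a peak in 1978 (37.1%) and Uhrf1 KO replicate 2 in 3155 (59.1%). Dhx9 KO replicates 1 and 2 had a peak in 4094 (76.8%) and 3718 (69.7%). The Uhrf1 KO libraries thus stood lowest, and they differed more from each other than the WT or the Dhx9 KO libraries did. Of all regions under 20 kb, the lists held peaks in 57.9% and 59.2% (WT), 36.0% and 47.4% (Uhrf1 KO) and 63.0% and 61.2% (Dhx9 KO). All 6 lists shared 1567 noncoding promoter regions (29.4%, against 21.1% of all regions), and 869 had a peak in a single list (16.3% against 29.2%).

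Facts of the whole lists bear on these numbers. The lists held 70195 to 125453 peaks, and Uhrf1 KO replicate 1, with the fewest, had 6703081 ChIP reads in peaks against 16966576 to 20875020 in the other 5. It had 29.1 reads per kb of peak in the noncoding promoter regions, against 44.0 to 49.5 in the others. The Uhrf1 KO peaks were called on background reads other than those used for WT and Dhx9 KO cells, so that genotype and background cannot be told apart. Dhx9 KO replicate 1 stood apart on 2 chromosomes: it had peaks in 149 of the 314 noncoding promoter regions on chromosome 8, where the other Dhx9 KO library had 237 and the WT libraries 260 and 255, and in 349 of 377 on chromosome 4, against 227 and 260 and 262. 

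Whether noncoding starts kept H3K9me3 without UHRF1 was asked first by the presence of peaks. Lost regions were those with peaks in both WT lists and in no list of the knockout, and gained regions were the opposite. Of the 3489 noncoding promoter regions called in both WT libraries, 816 were lost in Uhrf1 KO cells (23.4%), beside 24.4% of all regions under 20 kb. Regions at coding starts lost 33.4% and regions at no start 23.7%. Another 998 kept a peak in 1 of the Uhrf1 KO libraries and 1675 in both. Of the 1828 called in both Uhrf1 KO libraries, 66 were gained (3.61%, against 8.54% of all regions). With 2 libraries against 2, no two-sided exact test of a single value can go below p = 0.333, so these counts carry no test.

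The excess of lost over gained regions changed with the way the lists were used. Each list was first reduced to the 64113 peaks with the highest log2 fold. Then 267 noncoding promoter regions were lost (17.7% of 1508) and 277 gained (17.9% of 1547), where all regions gave 17.9% and 17%. This cut acts on peak strength as well as number, and the Uhrf1 KO folds rest on another background. The parts of these were not tested. Peaks with a log2 fold of at least 1 gave 293 lost (23.1%, against 21.3% of all regions) and 207 gained (17.9% against 16.8%). Peaks with a false discovery rate of at most 1e-10 gave 540 (29.4% against 24.9%) and 67 (8.07% against 12.7%). At both settings the lost share was above that of all regions, whereas with all peaks it was below. Leaving out Uhrf1 KO replicate 1, the library with the fewest reads in peaks, gave 868 lost and 225 gained regions, and leaving out the other Uhrf1 KO library gave 1762 and 135. Leaving out WT replicate 1 gave 1133 and 115, and leaving out WT replicate 2 gave 1197 and 104.

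**Figure D1:**
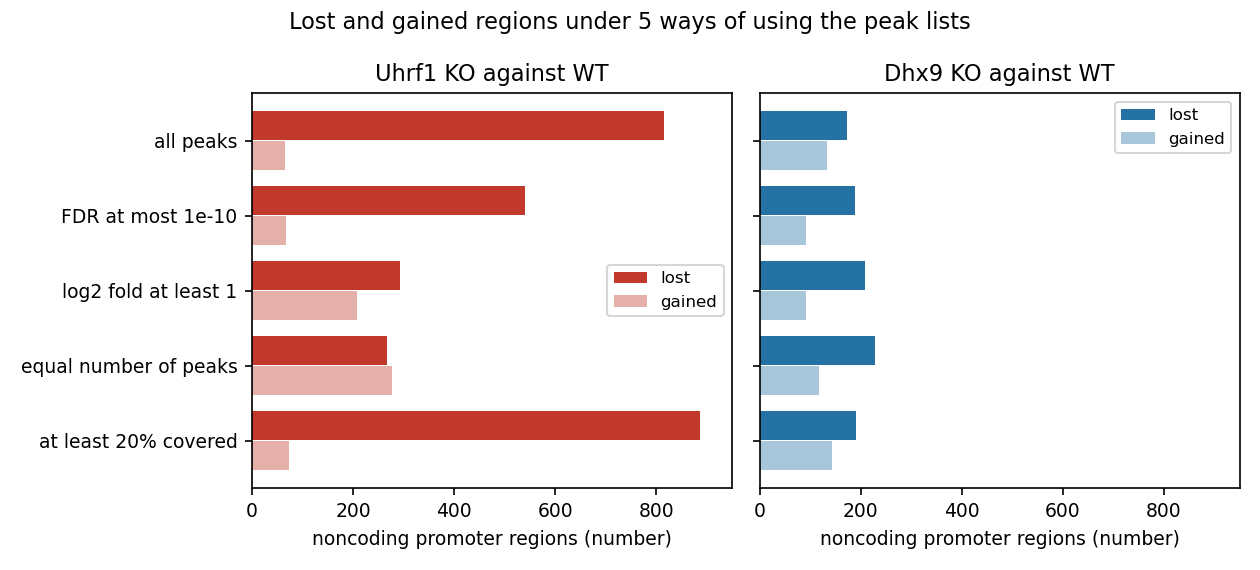
Number of noncoding promoter regions lost (dark bars) or gained (pale bars) in Uhrf1 KO (left) and Dhx9 KO cells (right) under 5 ways of using the peak lists, 2 libraries per genotype. In Uhrf1 KO cells 816 lost and 66 gained regions with all peaks became 267 and 277 with an equal number of peaks per list, and in Dhx9 KO cells the lost regions ranged from 173 to 228.

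The lost regions had weaker peaks in WT cells, more GC and less length than those kept. Their median lower WT log2 fold of ChIP over background was 0.63, against 1.06 for regions kept in both Uhrf1 KO libraries, their median length 4800 bp against 9000 bp and their GC content 48.6% against 45.8%. They held a median of 123.5 ChIP reads in WT replicate 1 and 111 in WT replicate 2, with ranges of 42 to 941 and 35 to 891. When all regions called in both WT libraries were divided into 5 bins of about equal size by GC content, the share of noncoding promoter regions lost in Uhrf1 KO cells was 4.03% (10 of 248) in the lowest bin and 43.3% (397 of 916) in the highest. All regions gave 5.04% and 46.6%. By the lower WT log2 fold the share went from 47.7% in the weakest bin to 4.43% in the strongest, and by length from 50.2% in the shortest to 9.34% in the longest. The noncoding promoter regions had a lower share than all regions in every bin of GC content and of WT log2 fold, but a higher share in every bin of length (50.2% against 40.1% in the shortest, 33.7% against 24.9% in the middle and 9.34% against 9.33% in the longest). These shares are descriptions without a test.

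**Figure D2:**
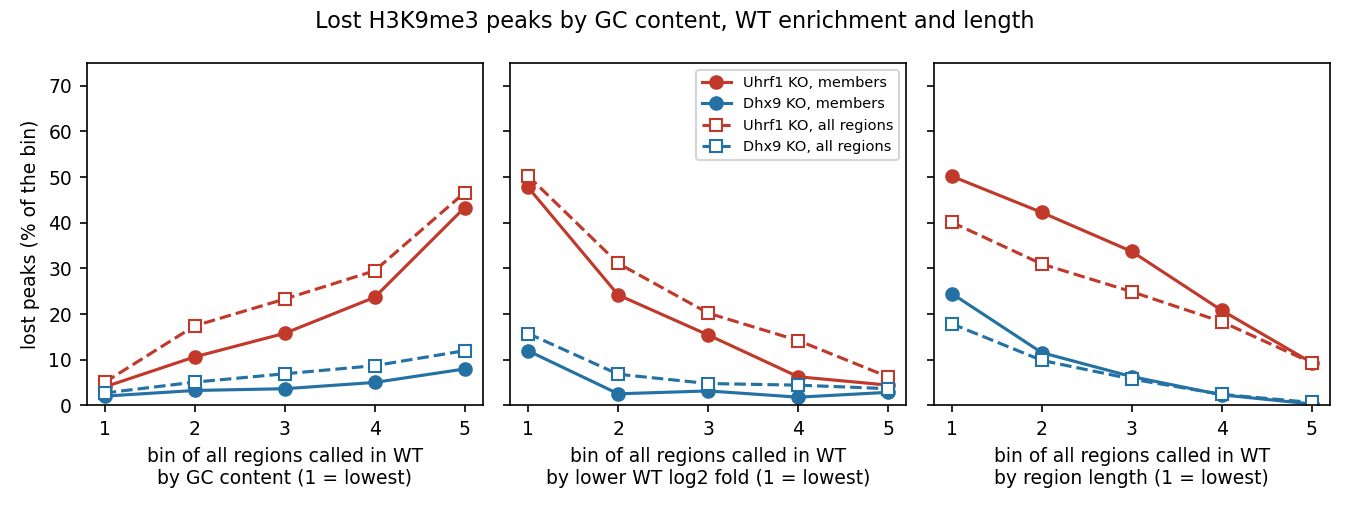
Share of regions that lost their peak (percent of the bin, vertical axis) in 5 bins of all regions called in both WT libraries, ranked by GC content, lower WT log2 fold and length, for noncoding promoter regions (filled circles) and all regions under 20 kb (open squares) in Uhrf1 KO (red) and Dhx9 KO cells (blue). For noncoding promoter regions in Uhrf1 KO cells the share goes from 4.03% to 43.3% with GC content and from 47.7% to 4.43% with WT log2 fold.

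Imprinted noncoding RNAs were described from a list chosen with earlier results of these data known. Of 9 regions at their starts, 8 were called in both WT libraries and 7 of these were lost in Uhrf1 KO cells, where the background was 24.4%. Stricter use of the lists gave 5 lost with a false discovery rate of at most 1e-10, where 24.9% of all regions were lost. It gave 5 with an equal number of peaks per list (17.9% of all regions) and 6 with a log2 fold of at least 1 (21.3%). The imprinted regions still called in both WT lists at these settings were not counted, so their lost shares are not known. Kcnq1ot1 had 732 and 687 ChIP reads in WT replicates 1 and 2, no peak in either Uhrf1 KO library, and 575 and 670 reads in the Dhx9 KO libraries. Its log2 fold over background was 2.08 and 2.06 in WT and 1.27 and 1.21 in Dhx9 KO cells. Both WT libraries and both Dhx9 KO libraries were thus called, and the Dhx9 KO folds were below the WT folds. These folds are those of the highest peak in the region, and their difference was not tested.

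The Dlk1-Dio3 domain on chromosome 12, whose maternally expressed RNAs start at Meg3, held 5 of the 9 regions. The Meg3 region (chr12:109546001-109554800) had 263 and 183 reads in WT cells, none in Uhrf1 KO cells and 267 and 205 in Dhx9 KO cells. Its nearest Meg3 start lay beside the region, and another Meg3 region (42600 bp) was left out by the length limit. The region at Mir673 and Mir770 held 501 and 517 reads in WT, none in Uhrf1 KO and 547 and 389 in Dhx9 KO cells. The region at Mir882 held 212 and 151, none, and 186 and 123 reads. The 10200 bp region at 9 miRNA genes, Mir453, Mir154, Mir496a, Mir377, Mir541, Mir409, Mir412, Mir369 and Mir410, held 369 and 311, none, and 344 and 303. In these 4 regions both WT and both Dhx9 KO libraries had a peak, while the Uhrf1 KO libraries had no peak. The region at Mir341 and Mir1188 had 113 reads in WT replicate 1 and no peak elsewhere.

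The mature miRNAs of the 10200 bp region are given because a single lost region spans starts of miRNAs with different seeds. They come from RefSeq on GRCm38.p6, 5' to 3', with the seed (bases 2 to 8) in capitals. MiR-453 and miR-496a-5p share the seed GGUUGCC, and every other seed shown occurs once among them.
miR-453: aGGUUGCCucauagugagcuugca
miR-496a-5p: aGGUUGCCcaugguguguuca
miR-410-5p: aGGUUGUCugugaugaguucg
miR-409-5p: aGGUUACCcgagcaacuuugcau
miR-154-5p: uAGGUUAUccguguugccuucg
miR-377-3p: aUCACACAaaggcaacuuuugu
miR-377-5p: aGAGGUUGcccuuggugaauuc
miR-541-5p: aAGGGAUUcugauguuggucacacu
miR-412-5p: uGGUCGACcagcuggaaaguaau
miR-369-3p: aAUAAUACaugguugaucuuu
miR-410-3p: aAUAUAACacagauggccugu
miR-409-3p: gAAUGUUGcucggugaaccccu
miR-154-3p: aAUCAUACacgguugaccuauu
miR-496a-3p: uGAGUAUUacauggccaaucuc
miR-369-5p: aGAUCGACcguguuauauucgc
miR-541-3p: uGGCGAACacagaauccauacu
miR-412-3p: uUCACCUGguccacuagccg

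The other imprinted regions lay at Mir335, Ipw and Peg3os. The Mir335 region (chr6:30742001-30744200), beside the Mir335 start inside Mest, had 42 and 66 reads in WT cells and no peak in any knockout library, so it was the 1 imprinted region lost in Dhx9 KO cells too. A longer region at the Mir335 start (chr6:30727001-30741200) was left out because a coding start lay in the same region. That region had 850 and 805 reads in WT, none in Uhrf1 KO and 581 and 597 in Dhx9 KO cells. The mature sequences of Mir335 are set out with the seed in capitals.
miR-335-5p: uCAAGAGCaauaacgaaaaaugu
miR-335-3p: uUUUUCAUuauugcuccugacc
Ipw, together with a Snord116 start, had 128 and 58 reads in WT, none in Uhrf1 KO, none in Dhx9 KO replicate 1 and 27 in Dhx9 KO replicate 2. Peg3os, transcribed opposite to the paternally expressed Peg3, had 326 and 343 reads in WT, none in Uhrf1 KO replicate 1, 196 in Uhrf1 KO replicate 2 and 303 and 331 in Dhx9 KO cells, and was therefore not lost. Without Uhrf1 KO replicate 2 it counted as lost too, so that all 8 imprinted regions called in both WT libraries did. Airn (30200 bp), H19 (68400 bp) and Peg13 (27000 bp) had their peaks in regions of 20 kb or longer and are not members.

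Of the stem cell and developmental noncoding RNAs listed, 8 genes had a member region and 33 had no peak at their starts. Of 9 regions at their starts, 5 were called in both WT libraries and 0 of these were lost in either knockout, where 24.4% and 7.08% of all regions were lost. So few regions do not set the list apart from that background. Platr6, a pluripotency-associated transcript, had 328 and 373 reads in WT, 218 and 536 in Uhrf1 KO and 270 and 341 in Dhx9 KO cells at chr10:21839801-21851200. A second Platr6 region had 155 and 136 reads in WT, none and 82 in Uhrf1 KO, and 137 and none in Dhx9 KO cells. Platr7 had 66 and 60, 50 and 58, and 96 and 70. Platr5 had 219 and 237 reads in WT, none and 183 in Uhrf1 KO, and 210 and 199 in Dhx9 KO cells. Miat, a nuclear long noncoding RNA, had 343 and 340, none and 337, and 313 and 272. In Platr5 and Miat the library without a peak was Uhrf1 KO replicate 1. Evx1os (59 reads), Lncenc1 (119) and Hotair (90) were called in WT replicate 2 alone, and Rmst (91) in Dhx9 KO replicate 2 alone.

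Housekeeping noncoding RNAs had 6 regions, 4 of them called in both WT libraries and 0 lost in either knockout, too few to set against 24.4% and 7.08% of all regions, and 33 genes of the list had no peak at their starts. The U1 snRNA genes Rnu1b1 and Rnu1b2 and the telomerase RNA gene Terc lie near each other on chromosome 3, and U1 genes are multicopy, so reads there may belong to other copies. Rnu1b2 had 174 and 189 reads in WT, 49 and 253 in Uhrf1 KO and 90 and 145 in Dhx9 KO cells, with log2 folds from 2.79 to 3.78. Rnu1b1 had 263 and 227, 190 and 402, and 190 and 303 reads. Terc had 115 and 88, 46 and 154, and none and 81. Snhg20 had 138 and 128, 80 and 270, and 126 and 146. Lncpint had no peak in WT or Uhrf1 KO cells and 83 and 75 reads in Dhx9 KO cells, and Neat1 had 54 reads in Dhx9 KO replicate 1 alone.

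**Figure D3:**
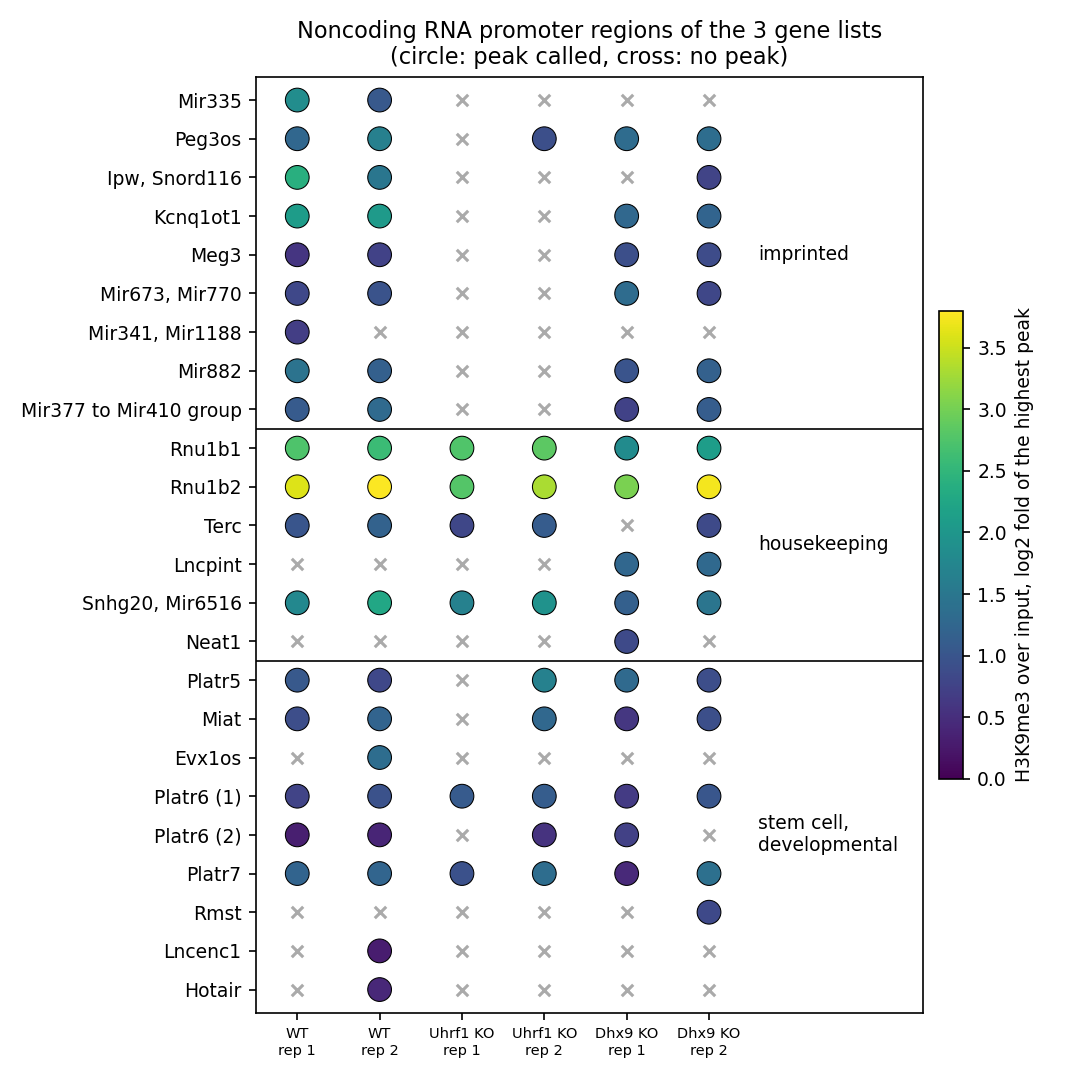
Log2 fold of ChIP over background of the highest peak (colour) in each of the 6 libraries (columns) for the noncoding promoter regions of the 3 gene lists (rows), with a cross where no peak was called. The imprinted regions have crosses in both Uhrf1 KO libraries except Peg3os, whereas Rnu1b1, Rnu1b2 and Snhg20 have a peak in all 6.

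Among kinds of noncoding starts, miRNA regions had 53 of 140 lost in Uhrf1 KO cells (37.9%), antisense genes 15 of 35 (42.9%), noncoding transcripts of coding genes 10 of 24 (41.7%), other long noncoding RNAs 734 of 3252 (22.6%) and pseudogenes 4 of 36 (11.1%). Regions whose centre lay inside a coding gene lost 33.8% (238 of 704) and those outside lost 20.8% (578 of 2785). GC content was 49.1% in miRNA regions, 48.1% in both antisense genes and noncoding transcripts of coding genes, and 46.6% in other long noncoding RNAs. It was 45.9% in pseudogenes, and 48.3% inside and 46.4% outside coding genes. The part of GC content in the differences in lost share was not tested. From the lowest to the highest GC bin, 1 of 10, 2 of 8, 5 of 23, 5 of 26 and 40 of 73 miRNA regions were lost (10.0%, 25.0%, 21.7%, 19.2% and 54.8%), against 4.03%, 10.6%, 15.8%, 23.7% and 43.3% of all noncoding promoter regions. All regions under 20 kb gave 5.04%, 17.4%, 23.3%, 29.5% and 46.6% in these bins. With an equal number of peaks per list, 12 of 41 miRNA regions were lost (29.3%, against 17.9% of all regions). At that setting 10 of 43 were gained (23.3% against 17%). Without Uhrf1 KO replicate 2, 91 miRNA regions were lost, and without each other library 54 to 76.

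**Figure D4:**
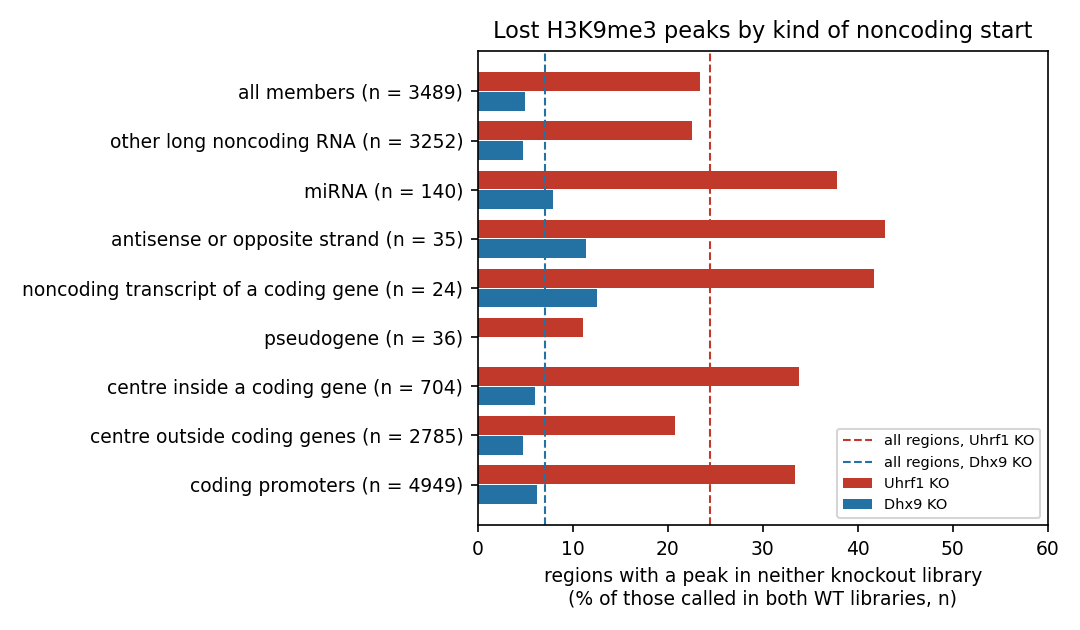
Share of regions called in both WT libraries that had no peak in either knockout library (percent, horizontal axis) by kind of noncoding start, with n in brackets, for Uhrf1 KO (red) and Dhx9 KO cells (blue) and with dashed lines for all regions under 20 kb. In Uhrf1 KO cells miRNA regions reach 37.9% and pseudogenes 11.1%, against 24.4% for all regions.

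All regions at a miRNA start, including 8 of another kind such as the Mir9-3 host gene, numbered 232. Of these, 148 were called in both WT libraries, and 54 of the 148 were lost in Uhrf1 KO cells (36.5%, against 24.4% of all regions). These 54 held 66 miRNA genes, of which 58 had a mature sequence in RefSeq, with 98 mature sequences and 95 seeds, and 3 seeds occurred in 2 or more genes. Their reads ranged from 42 to 542 in WT replicate 1 (median 146) and from 44 to 517 in WT replicate 2 (median 130.5). On chromosomes 1 to 6 they lay at Mir6897, Mir1231, Mir5123, Mir7226, Mir7019, Mir3097, Mir7230, Mir7028, Mir6240, Mir7035, Mir7039, Mir183 with Mir96, Mir335, Mir705 and Mir7041. On chromosomes 7 to 10 they lay at Mir7057, Mir9-3, Mir202 with Mir7686, Mir6404, Mir7065, Mir3106, Mir8110, Mir7087, Mir2136, Mir26a-1, Mir6906, Mir6410 and Mir6908. On chromosomes 11 and 12 they lay at Mir5110, Mir196a-1, Mir5621, Mir3067, Mir345, Mir6940 and the 3 lost regions of the Dlk1-Dio3 domain. On chromosomes 14 to 19 they lay at Mir598, Mir6950, Mir3964, Mir28c, Mir3080, Mir1249, Mir6364, Mir8095, Mir568, Mir6367, Mir877, Mir6977, Mir6980, Mir6982 with Mir7220, Mir6983, Mir6985 and Mir6405. The centre of 37 of the 54 lay inside a coding gene, as did 149 of the 232. Mir9-3, of the family that acts in neural progenitors, had 115 and 137 reads in WT and 131 and 97 in Dhx9 KO cells. Mir8117 was gained in Uhrf1 KO cells, with 38 and 66 reads.

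Over all members, the lost regions with the highest WT folds were LOC108167589, 4930578E11Rik, Gm31445, Kcnq1ot1, Gm34938, Rbm46os, Gm5532 and Gm38773. LOC108167589, on chromosome 8 with 92.8% of bases masked, had 78 and 135 reads in WT replicates 1 and 2, log2 folds of 3.45 and 3.12, and no peak in any knockout library. Gm5532 (chr1:155527401-155534800) had 413 and 404 reads in WT, none in Uhrf1 KO and 359 and 418 in Dhx9 KO cells, and its start lay beside the region. Gm31445, 85.4% masked, had 66 and 83 reads in WT and 72 and none in Dhx9 KO cells. Rbm46os, opposite to Rbm46, had 61 and 74, none, and 72 and none. Gm34938 had 59 and 71 reads in WT and none and 66 in Dhx9 KO cells. Of these 5, Gm5532 alone had a peak in both Dhx9 KO libraries.

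The 5 strongest gained regions in Uhrf1 KO cells were short and held few reads. Gm30228 (3400 bp) had 80 and 35 reads in Uhrf1 KO replicates 1 and 2, with log2 folds of 2.54 and 2.46, and 121 reads in Dhx9 KO replicate 2. LOC108167624 (800 bp) had 19 and 36 reads, LOC105246151 (2400 bp) 54 and 91, Mup-ps8 (400 bp), a pseudogene of the major urinary proteins, 14 and 33, and 4930478L05Rik (3400 bp) 62 and 142. The other 4 had no peak in the Dhx9 KO libraries. Over the 66 gained regions the median was 38 reads in Uhrf1 KO replicate 1 and 85.5 in replicate 2, and their GC content was 44.1%.

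In Dhx9 KO cells 173 of the 3489 noncoding promoter regions called in both WT libraries were lost (4.96%, against 7.08% of all regions), and 133 of the 3162 called in both Dhx9 KO libraries were gained (4.21%, against 9.16%). Regions at coding starts lost 6.22%. Of the 3489, 2748 kept a peak in both Dhx9 KO libraries and 568 in 1 of them. With an equal number of peaks per list, 228 were lost (6.72%, against 8.79% of all regions) and 117 gained (3.99% against 8.9%). With a log2 fold of at least 1 the lost share was above that of all regions (16.4% against 14.4%). Without Dhx9 KO replicate 1 these counts were 541 and 357, without Dhx9 KO replicate 2 they were 373 and 449, without WT replicate 1 they were 345 and 287, without WT replicate 2 they were 376 and 260, and without chromosomes 4 and 8 they were 146 and 122. The lost regions had a median lower WT log2 fold of 0.57 and a median length of 3200 bp, against 0.92 and 8200 bp for those kept in both libraries. By GC content, the share lost went from 2.02% in the lowest bin to 7.97% in the highest.

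The strongest lost regions in Dhx9 KO cells were LOC108167426, LOC108167589, Gm41020, 4930578E11Rik, Gm38773, LOC102632231, 4930553C11Rik and Gm41079. LOC108167426 (chr7:48742001-48743600, 72.4% masked) had the highest WT fold of all members of 1 kb or longer, with 29 and 41 reads and log2 folds of 5.02 and 5.58 in WT. It had 17 and 66 reads in Uhrf1 KO cells and none in Dhx9 KO cells. Gm41020 had 42 and 36 reads in WT, 27 and 84 in Uhrf1 KO and none in Dhx9 KO cells. LOC102632231 had 131 and 73, none and 65, and none. 4930578E11Rik (44 and 47), Gm38773 (68 and 50), 4930553C11Rik (66 and 79) and Gm41079 (63 and 64) had reads in WT cells and no peak in any knockout library. All WT values here were low, from 29 to 135 reads.

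The strongest gained regions in Dhx9 KO cells were Gm33890 (85 and 61 reads in Dhx9 KO replicates 1 and 2), LOC108169002 (71 and 60), Gm31419 (55 and 77), LOC108168109 (63 and 55) and Gm32920 (89 and 77). LOC108169002 also had 53 reads in Uhrf1 KO replicate 2 and Gm32920 34 in Uhrf1 KO replicate 1. At miRNA starts, 11 of the 148 regions called in both WT libraries were lost in Dhx9 KO cells (7.43%, near the 7.08% of all regions), those of Mir3097, Mir7230, Mir183 with Mir96, Mir335, Mir202 with Mir7686, Mir8110, Mir5110, Mir5621, Mir6950, Mir568 and Mir694. Mir7230, the one with most reads, had 282 and 273 in WT cells. Mir183 with Mir96, of the cluster known from sensory cells, had 114 and 91. Mir694 had 176 and 82 in WT, none and 181 in Uhrf1 KO and none in Dhx9 KO cells. Mir8117 (112 and 112 reads) and Mir5118 (114 and 82) were gained. Both comparisons share the WT libraries, so their calls are not independent of each other.

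The strongest members in WT cells, beside LOC108167426 and Rnu1b2, were Gm35621, Gm33246, Gm40663, Gm40843, Stxbp3-ps and Gm31114. All 6 had peaks in every library. Stxbp3-ps, a pseudogene 73.3% masked, had 1172 and 1120 reads in WT, 484 and 1362 in Uhrf1 KO and 757 and 1069 in Dhx9 KO cells. Gm31114, 93.1% masked, had 606 and 518, 391 and 897, and 332 and 773. Gm33246 had 216 and 262, 118 and 426, and 148 and 222. Gm40843 had 658 and 611, 194 and 695, and 387 and 456. Gm35621 had 175 and 69, 62 and 319, and 149 and 144, and Gm40663 had 224 and 236, 172 and 398, and 246 and 487. In each of these 6 the lowest Uhrf1 KO value was that of replicate 1. The most reads of all members were at 2700054A10Rik, with 32653 and 40710 in WT, 10824 and 28918 in Uhrf1 KO and 39455 and 30513 in Dhx9 KO cells. This region and Mir6349, whose 3342 reads in WT replicate 1 stood against 216 in WT replicate 2, were named after their values were seen.

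Read counts were compared where peaks could be measured in every library. A region entered when it had a peak in all 4 libraries that covered at least 80% of it in each, and counts were tested with edgeR's quasi-likelihood test with TMM, the called length as offset and Benjamini-Hochberg adjustment over all regions tested. Regions that lost their peak in a knockout, or kept it over less than 80%, could not enter. Few calls in either comparison therefore do not show that the mark was unchanged at the other regions. Of 1387 regions tested in Uhrf1 KO cells, 32 were noncoding promoter regions. Of these 32, 1 fell and 0 rose, beside 6.2% and 1.51% of all regions. At an unadjusted p under 0.05 there were 5 lower and 4 higher (28.1%, near the 25.6% of all regions). DESeq2 called 1 lower and 0 higher, beside 4.18% and 0.505% of all regions. The region that fell was that of Gm40468 on chromosome 8 (chr8:20257601-20268600), an uncharacterised noncoding RNA, with 1879 and 1613 normalised reads in WT and 1323 and 1269 in Uhrf1 KO cells. The normalised WT and Uhrf1 KO values did not overlap, which the choice of the region by its adjusted p made likely. The change was -0.43 on the log2 scale with an SE of 0.11 (edgeR, adjusted p = 0.0263). Without WT replicate 1 or 2 its adjusted p was 0.479 or 0.296, and 0 members were called in either case. At a coverage of at least 50% it was 0.0698. In reads as deposited, not scaled to depth or called length, the Gm40468 region had 2209 and 1772 in WT and 727 and 1789 in Uhrf1 KO cells. It had 508 and 833 in Dhx9 KO cells, so low reads there were not particular to Uhrf1 KO cells.

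At a coverage of at least 50%, 436 noncoding promoter regions were among 11236 tested, and 17 fell and 3 rose (3.9% and 0.688%), beside 3.77% and 0.481% of all regions, so the shares were near the background. At an unadjusted p under 0.05 there were 96 (22.0%, against 21% of all regions). Their median log2 change was -0.13 and that of all regions -0.12. Without chromosomes 4 and 8 these numbers were 11 and 2 of 356. The largest fall among them was at Gm6756 on chromosome 18, from 292.6 and 265.8 normalised reads to 97.6 and 129.2, a log2 change of -1.28 (SE 0.21, edgeR, adjusted p = 0.000742). Gm1995 went from 760 and 886 to 414 and 419 normalised reads, a log2 change of -0.98 (SE 0.15, edgeR, adjusted p = 0.000524). Gm40843, among the strongest WT members, went from 652 and 540 to 422 and 365, a log2 change of -0.61 (SE 0.16, edgeR, adjusted p = 0.0308). The 3 that rose were Gm6410, Gm32457 and Gm36897, with log2 changes of 0.65, 0.67 and 0.70. Apart from Gm40843 these regions were named by no rule and were chosen after their values were seen.

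Of the 17 that fell, 7 lay on chromosome 8, which held 53 of the 436 regions, and 2 of these 7 were 5S ribosomal RNA genes. In reads per called length, chromosome 8 regions stood at a median log2 difference from WT replicate 1 of -0.10 and -0.18 in Uhrf1 KO replicates 1 and 2, and WT replicate 2 was at -0.0042. The part of this shift in the calls on that chromosome was not tested. The 5S genes form an array on chromosome 8 that gave 9 noncoding promoter regions, and as the copies are near-identical, reads there cannot be assigned to a copy. n-R5s136 had 690 and 679 normalised reads in WT and 419 and 220 in Uhrf1 KO cells, a log2 change of -1.18 (SE 0.20, edgeR, adjusted p = 0.00163). n-R5s146 had 455 and 394, and 302.5 and 153.5, a log2 change of -0.99 (SE 0.22, edgeR, adjusted p = 0.0125). In reads as deposited, n-R5s136 had 661 and 614 in WT, 209 and 508 in Uhrf1 KO and 453 and 442 in Dhx9 KO cells. The other 7 regions of the array had 0 to 277 reads, n-R5s100 was lost and n-R5s142 gained in Uhrf1 KO cells, and the 5S genes too were chosen after their values were seen.

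In Dhx9 KO cells 114 noncoding promoter regions were among 2708 tested, and 0 fell and 0 rose by edgeR at an adjusted p of 0.05, beside 0.295% and 0.0369% of all regions. At an unadjusted p under 0.05 there were 6 lower and 7 higher (11.4%, against 12.1% of all regions), and DESeq2 called 0. Their log2 changes ranged from -0.79 to 0.55 with a median of 0.03. The smallest p belonged to LOC108168100, with 100 and 117 normalised reads in WT and 60.7 and 64.8 in Dhx9 KO cells (log2 change -0.79, SE 0.19, edgeR, adjusted p = 0.154). Slc6a17, a coding gene of a neuronal transporter with a noncoding transcript start in the region, had 355 and 397, and 248 and 245 (log2 change -0.61, SE 0.15, edgeR, adjusted p = 0.155). Gm33563 had 157 and 148, and 210 and 235 (log2 change 0.55, SE 0.16, edgeR, adjusted p = 0.234). In none of the 3 did the WT and Dhx9 KO values overlap, which their choice by the smallest p made likely. At a coverage of at least 50%, 1 of 1218 fell and 0 rose by edgeR, beside 0.11% and 0.00439% of all regions, and 118 had an unadjusted p under 0.05 (9.69%, against 10.1%). DESeq2 was not run at this coverage. The region that fell was that of Rab10os, opposite to Rab10, which had 882 and 886 normalised reads in WT and 471 and 555 in Dhx9 KO cells (log2 change -0.79, SE 0.13, edgeR, adjusted p = 0.0345), and which was named after its values were seen.

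**Figure D5:**
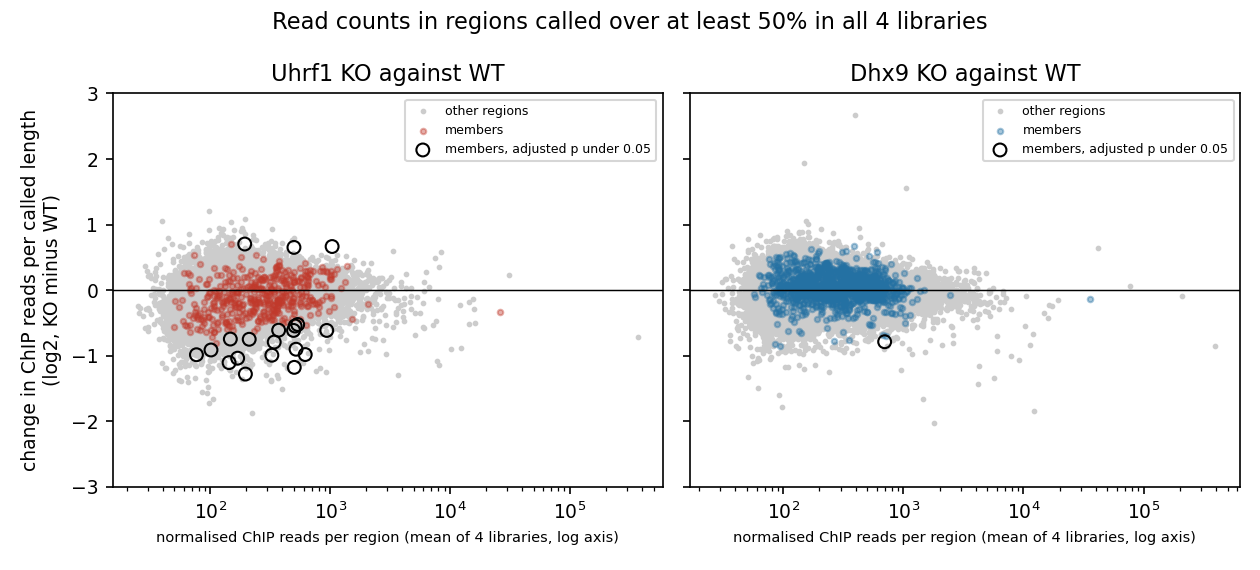
Change in ChIP reads per called length (log2, knockout minus WT, vertical axis) against mean normalised reads of the 4 libraries (log axis) for regions with peaks over at least 50% in each of the 4 libraries, with noncoding promoter regions in colour and all other regions in grey, and black rings at an edgeR adjusted p under 0.05. In Uhrf1 KO cells 17 members lie below 0 and 3 above 0 with a ring, and in Dhx9 KO cells 1.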

How the data were processed

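H3K9me3 ChIP-seq peak lists of 6 mESC libraries (WT, Uhrf1 KO and Dhx9 KO, 2 each) and a deposited transcript annotation were used. The authors aligned reads with Bowtie2 2.3.4.3 to mm10, per the methods drew an even number of reads per library, and ran epic2 on each one (SICER 0.0.51 in the submitters' processing notes), keeping duplicates, in bins of 200 bp. Each deposited list holds, for every peak, raw counts of reads from ChIP and from the background. They also give the authors' p-value and false discovery rate per peak, the log2 fold of the 2 after scaling to library sizes, and a score derived from that fold. The deposited annotation is of another kind: transcript positions without a measured value. The paper names wild-type input as background, yet the Uhrf1 KO peaks carry background counts other than those of WT and Dhx9 KO peaks. Reads outside peaks are not listed, so where no peak was called the depth is unknown. ChIP reads in peaks per library were 6703081 to 20875020, and precision from counts covers counting error only.

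Peaks overlapping by at least 1 bp were merged with Python 3.11.15, numpy 2.4.6 and pandas 2.3.3, with positions counted from 1. A region's reads are the sum over its peaks and its log2 fold is that of its highest peak. Read counts of regions called over at least 80% in each of 4 libraries were tested in R 4.3.3 with edgeR 4.0.16 (quasi-likelihood, TMM, called length as offset, Benjamini-Hochberg at 0.05), with DESeq2 1.42.0 as an alternative; the step was tested on simulated data. The low-count filter removed 0 regions. Replicates are samples that the methods call biological without further detail, so p-values measure the spread between these libraries. GC content, masked repeats and sequences came from RefSeq GRCm38.p6, the build of the lists, and all 28549 promoter entries compared matched that genome.

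Members and gene lists were chosen with earlier results of these data known. The text names members at the listed genes, the 8 strongest of 1 kb or longer in WT, per knockout the 8 strongest lost and 5 strongest gained, per knockout the 5 largest falls and rises past the threshold or else the 3 smallest p, every miRNA member lost or gained, and the longest member and shortest region left out. Alternatives were stricter peaks, equal peak numbers, 20% coverage, other flanks, curated transcripts, no length limit, wider merging, other scalings and filters, a replicate block and each library left out. Leaving out chromosomes 4 and 8, and the counts for imprinted and miRNA regions under each alternative, were added after seeing the data.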

Additional observations from a re-analysis of the deposited data

How the results depend on the processing

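Requiring curated NR_ transcripts left 173 lost and 14 gained regions in Uhrf1 KO and 26 and 20 in Dhx9 KO cells, since fewer regions qualified. In Uhrf1 KO cells a false discovery rate of at most 1e-10 gave 540 lost, a log2 fold of at least 1 gave 293 lost and 207 gained, and equal peak numbers gave 267 and 277. The cause was not tested. Leaving out 1 library in turn gave 868 to 1762 lost and 104 to 225 gained regions in Uhrf1 KO cells, and 345 to 541 lost and 260 to 449 gained in Dhx9 KO cells. The other alternatives kept these 4 counts within 1.5 times.

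In read counts, Uhrf1 KO cells had 1 called member, 0 with equal library sizes, 0 without a coverage limit, 0 with all 6 libraries in one fit, 0 without chromosomes 4 and 8, 4 without the length offset, 20 at 50% coverage and 13 at 50% without chromosomes 4 and 8. Dhx9 KO cells had 0, but 1 at 50% coverage, 2 without a coverage limit and 3 at 50% without chromosomes 4 and 8. Leaving out each library gave 0 to 6 in Uhrf1 KO and 0 to 14 in Dhx9 KO cells, the lone library being assumed to vary like the others. Leaving out chromosomes 4 and 8 was chosen after seeing the data. With the replicate number as a block, the counts were 1 and 0. Same-numbered libraries did not deviate together, with correlations of 0.087 and -0.066. The adjusted p of Gm40468 ranged from 0.000115 to 1 over the alternatives. Of the members named for their peaks, 100 calls under stricter peaks were kept and 4 were not. These members were chosen for their high log2 folds, and stricter peaks add no peak where none was called. The count was therefore largely set by the choice and is no support for the calls.

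Uhrf1 KO replicate 1 had the fewest reads in peaks, the depth outside peaks is unknown, and a missing peak does not show that the mark is absent. With 2 libraries a genotype, peak calls carry no test.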
